A study of Mus musculus with 8 samples.

Results

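Shared myogenin peaks at promoters were the intervals of the bexarotene myogenin list that overlapped a control myogenin interval by at least 1 bp and whose centre lay within 1 kb of the transcription start site (TSS) of a protein-coding gene. There were 250 of them among the 6615 bexarotene intervals considered, out of 43759 intervals in all 4 deposited lists. Membership was chosen by measured values, the peak calls in both myogenin lists and the distance to the TSS, so neither the overlap nor the distance is a result. Of the 6615 intervals, 44.9% overlapped a control interval and 12.3% had the centre within 1 kb of such a TSS. The intervals on the mitochondrial genome and on chromosome 9 below 3.1 Mb had been left out, which removed 27 bexarotene and 28 control intervals. The cells were C2C12, a mouse myoblast line of the C3H strain that fuses into myotubes in low serum. Myoblasts were moved to differentiation medium with horse serum for 24 h, either without the drug (Ctl) or with 50 nM bexarotene (Bex), a synthetic agonist of the retinoid X receptor (RXR), added when differentiation was induced. Both arms therefore shared the line, the medium and the 24 h of differentiation, and differed in the drug. Chromatin was precipitated with an antibody against myogenin or against the histone acetyltransferase p300, with 1 library for each antibody and condition. The lists hold positions and no tag counts, so peak strength was not measured here, and they hold no transcript levels against which the cell type could be checked.

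Myogenin is a basic helix-loop-helix factor that pairs with an E protein, binds the E-box CANNTG and drives the last steps of myoblast differentiation. Its classic targets include the promoters of acetylcholine receptor subunits and of contractile genes, where E-boxes lie close to the start site. Promoters fall broadly into CpG-rich ones, which many housekeeping genes have, and CpG-poor ones, which are frequent at tissue-specific genes. p300 acetylates histones at active promoters and enhancers and serves as a coactivator of myogenic factors and of nuclear receptors such as RXR.

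The sequences at muscle genes are shown first because these promoters held an E-box more often than promoter peaks called in 1 condition, although shared peaks away from promoters held more E-boxes. The E-boxes searched were CAGCTG and CACCTG, on both strands, so that CAGGTG is the second one read on the other strand, and each such site is also a CANNTG. Sequences are from mm9, read 5′ to 3′ in the direction of transcription, with E-boxes in capitals. The 100-bp windows are centred on the bexarotene interval, lie upstream of every annotated start of the gene and are printed for each listed gene that had an E-box there, first for the acetylcholine receptor, fusion, contractile and calcium genes.
Chrng (chr1:89102156-89102255, plus strand, bases -230 to -131 from the TSS): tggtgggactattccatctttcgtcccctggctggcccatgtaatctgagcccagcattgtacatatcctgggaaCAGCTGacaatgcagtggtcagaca
Erbb3 (chr10:128027343-128027442, minus strand, bases -734 to -635 from the TSS): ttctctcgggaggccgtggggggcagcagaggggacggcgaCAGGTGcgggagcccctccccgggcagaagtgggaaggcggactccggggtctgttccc
Gm7325 (chr17:45739070-45739169, minus strand, bases -118 to -19 from the TSS): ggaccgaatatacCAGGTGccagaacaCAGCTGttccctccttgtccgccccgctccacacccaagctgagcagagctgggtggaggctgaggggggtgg
Mamstr (chr7:52894987-52895086, plus strand, bases -376 to -277 from the TSS): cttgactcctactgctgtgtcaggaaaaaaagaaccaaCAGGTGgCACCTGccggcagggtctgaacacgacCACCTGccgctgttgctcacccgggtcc
Acta2 (chr19:34330029-34330128, minus strand, bases -302 to -203 from the TSS): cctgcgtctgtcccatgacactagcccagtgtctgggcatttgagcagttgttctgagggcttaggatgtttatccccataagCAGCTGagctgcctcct
Kbtbd5 (chr9:121685791-121685890, plus strand, bases -934 to -835 from the TSS): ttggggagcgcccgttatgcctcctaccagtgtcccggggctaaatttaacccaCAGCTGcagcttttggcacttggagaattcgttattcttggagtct
Lmod3 (chr6:97202830-97202929, minus strand, bases -155 to -56 from the TSS): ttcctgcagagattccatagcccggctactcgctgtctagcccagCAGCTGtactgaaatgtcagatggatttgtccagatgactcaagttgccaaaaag
Hrc (chr7:52590049-52590148, plus strand, bases -611 to -512 from the TSS): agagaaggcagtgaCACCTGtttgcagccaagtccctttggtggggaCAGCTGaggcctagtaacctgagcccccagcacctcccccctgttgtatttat
The same windows follow for genes of transcription, chromatin and the cell cycle.
Mef2a (chr7:74518407-74518506, minus strand, bases -762 to -663 from the TSS): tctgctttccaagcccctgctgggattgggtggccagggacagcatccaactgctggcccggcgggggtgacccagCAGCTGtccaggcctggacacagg
Hdac11 (chr6:91106232-91106331, plus strand, bases -427 to -328 from the TSS): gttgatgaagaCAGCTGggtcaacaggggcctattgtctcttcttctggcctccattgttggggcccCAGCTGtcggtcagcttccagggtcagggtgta
Wwtr1 (chr3:57380542-57380641, minus strand, bases -809 to -710 from the TSS): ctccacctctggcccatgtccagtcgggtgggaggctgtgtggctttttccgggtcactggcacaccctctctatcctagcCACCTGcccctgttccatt
E2f3 (chr13:30078362-30078461, minus strand, bases -924 to -825 from the TSS): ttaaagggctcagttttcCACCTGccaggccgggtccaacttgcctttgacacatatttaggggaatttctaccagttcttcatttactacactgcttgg

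Chrng encodes the gamma subunit of the embryonic muscle acetylcholine receptor, and its window held 1 CAGCTG. Gm7325, now named Mymx, encodes the fusion peptide myomixer. Its window held CAGGTG and CAGCTG with 8 bp between them, and a further CAGCTG lay 12 bp upstream of that pair. Mamstr, a coactivator of MEF2 factors, had CAGGTG and CACCTG separated by 1 bp, followed by another CACCTG. At Chrna1, the alpha subunit of the receptor, and at Myh3, the embryonic myosin heavy chain, the E-boxes lay in the interval but outside the 50 bp around its centre. Windows placed on those E-boxes, and the window centred on the peak of Klf4, a Krüppel-like factor gene without an E-box, are given for contrast. They were chosen after the values were seen.
Chrna1 (chr2:73418411-73418510, minus strand, bases -115 to -16 from the TSS): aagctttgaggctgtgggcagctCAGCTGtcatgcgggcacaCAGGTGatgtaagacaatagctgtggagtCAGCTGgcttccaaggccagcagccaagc
Myh3 (chr11:66891097-66891196, plus strand, bases -705 to -606 from the TSS): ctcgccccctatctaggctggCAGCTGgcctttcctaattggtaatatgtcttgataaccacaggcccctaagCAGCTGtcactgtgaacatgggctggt
Klf4 (chr4:55546092-55546191, minus strand, bases -844 to -745 from the TSS): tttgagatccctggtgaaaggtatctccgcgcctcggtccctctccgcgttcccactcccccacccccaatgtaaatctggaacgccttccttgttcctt
Of E-boxes nearer to the start, 30 bases each are shown for Chrnb1 (the beta subunit of the receptor), Tmem8c (now Mymk, the fusion protein myomaker), Cox8b (a cytochrome c oxidase subunit of muscle) and Tnni2 (fast troponin I), also chosen after the values were seen.
Chrnb1 (chr11:69609451-69609480, minus strand, E-box at -21): gtcccccgacaaCAGGTGcacattcctggg
Tmem8c (chr2:26927710-26927739, minus strand, E-box at -26): cacatggtacatCAGCTGttggaccttctc
Cox8b (chr7:148086347-148086376, minus strand, E-box at -17): tgtgacaggagaCAGCTGcagctctccacc
Tnni2 (chr7:149628118-149628147, plus strand, E-box at -102): caccctggcagcCACCTGtgctggccagcc
Tnni2 (chr7:149628159-149628188, plus strand, E-box at -61): ctccctcggggaCAGCTGcagctcctcagg

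An E-box lay within 50 bp of the centre in 128 of the 250 shared promoter peaks, which is 51.2% (95% Wilson interval 45 to 57.3), where 60.5% of all bexarotene intervals had one. Promoter peaks called in 1 condition held fewer. The share was 17.5% of 1160 control-only promoter peaks, 33.7 percentage points lower (95% Newcombe interval 27.1 to 40.2), and 25.4% of 563 bexarotene-only promoter peaks, 25.8 points lower (18.6 to 32.8). The 2720 shared peaks farther than 1 kb from a TSS, called distal here, had the highest share, 72.8%, and the difference of the promoter peaks from them was -21.6 points (-28.0 to -15.3). All intervals of shares cover counting error over peaks of single libraries and not the variation between cultures, and no p-value is given because each condition had 1 library. Across 100-bp windows tiled over all protein-coding promoters, 12.4% held such an E-box, and of the windows 2 kb to either side of the shared promoter peaks 13.8% did.

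**Figure D1:**
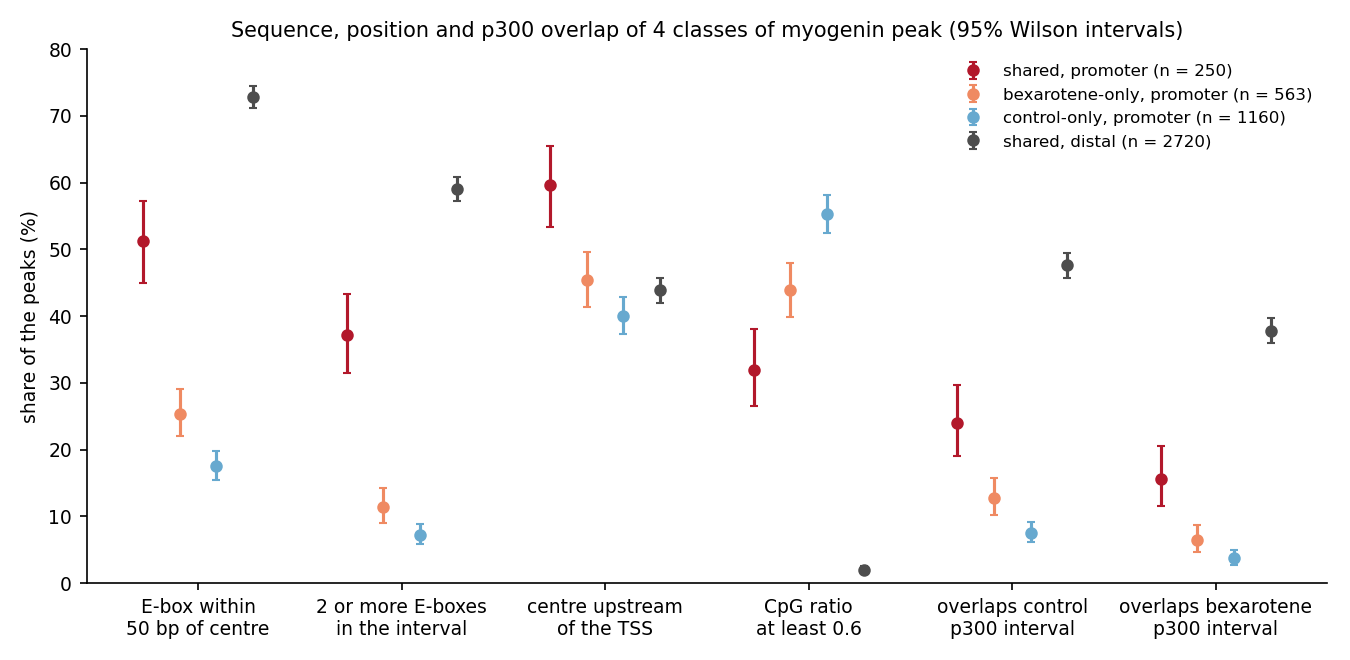
Share of peaks (%, y axis) with each of 6 features (x axis) in shared promoter peaks (n = 250), bexarotene-only promoter peaks (n = 563), control-only promoter peaks (n = 1160) and shared distal peaks (n = 2720). Points are shares and bars are 95% Wilson intervals. The shared promoter peaks lie between the other promoter peaks and the shared distal peaks for every feature but the position upstream of the TSS, where they are highest at 59.6%.

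The same reading at the centre of the paired control interval gave 119 of 250 peaks, or 47.6% (41.5 to 53.8), which is 30.1 points (23.6 to 36.6) above the control-only promoter peaks read in that list. An E-box lay near both centres in 99 peaks, near the bexarotene centre alone in 29, near the control centre alone in 20 and near neither in 102. The stretch covered by both intervals held an E-box in 161 peaks (64.4%). Over the whole bexarotene interval, 180 peaks (72.0%) held at least 1 E-box and 93 (37.2%, 31.4 to 43.3) held 2 or more, against 7.24% of control-only, 11.4% of bexarotene-only and 59.1% of shared distal peaks. By number, 70 intervals had no E-box, 87 had 1, 56 had 2, 19 had 3, 14 had 4 and 4 had 5. Longer intervals can hold more sites, and the shared promoter peaks were longer than the other promoter peaks, with median lengths of 211 bp against 172 bp in control-only and 168 bp in bexarotene-only peaks. The count within 50 bp of the centre uses the same width in every peak, and among intervals of the smallest length it gave 44.3% of 122 shared promoter peaks, 26.2 points (17.3 to 35.4) above control-only and 21.5 points (12 to 31.1) above bexarotene-only peaks.

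The intervals with 5 E-boxes were at Rhobtb1, Pvalb (parvalbumin, the calcium buffer of fast fibres), Lrba (a vesicle-trafficking protein) and Klhl8 (a Kelch-family adaptor). At Klhl8 they fell in the smallest possible interval of 168 bp. At Pvalb all 5 were CAGCTG, at positions from 739 to 946 bp downstream of the TSS in an intron. Chd3, a chromatin remodeller gene, and Krtap1-5, a keratin-associated protein gene, each had 4 E-boxes within 50 bp of the centre, the highest number found there, and were picked after this was seen. Of the 14 intervals with 4 E-boxes, the longest 6 were those at ORF63, 1110017F19Rik, A430105I19Rik, Arhgef2, Pacs2 and Gcom1.

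CAGCTG was the core in 129 of 177 E-boxes within 50 bp of the shared promoter centres, or 72.9% (65.9 to 78.9), close to the 75.1% of 2831 E-boxes at shared distal centres. In control-only promoter peaks the share was 46.4% (40.1 to 52.8) of 233 E-boxes and in bexarotene-only ones 61.1% (53.8 to 68.1) of 175. CAGCTG itself lay near 42.0% of the shared promoter centres, 33.3 points (27.1 to 39.7) above control-only peaks, and in 5.00% of the tiled promoter windows. CACCTG differed less, at 17.2% against 9.91% in control-only peaks, a difference of 7.29 points (2.72 to 12.7). Of the CAGCTG sites at shared promoter centres, 113 of 129 (87.6%, 80.8 to 92.2) had 2 pyrimidines after them on at least 1 strand, and in control-only peaks 80 of 108 did (74.1%, 65.1 to 81.4). The share was 79.4% (70.8 to 86.0) in bexarotene-only and 83.1% (81.4 to 84.6) in shared distal peaks. Over all E-boxes, CACCTG included, the shares were 83.6% (77.5 to 88.3) in shared promoter, 54.1% (47.7 to 60.4) in control-only, 72.6% (65.5 to 78.6) in bexarotene-only and 81.7% (80.3 to 83.1) in shared distal peaks. CAGCTG is its own reverse complement and can be followed by pyrimidines on either side, so these shares also move with the share of CAGCTG.

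**Figure D2:**
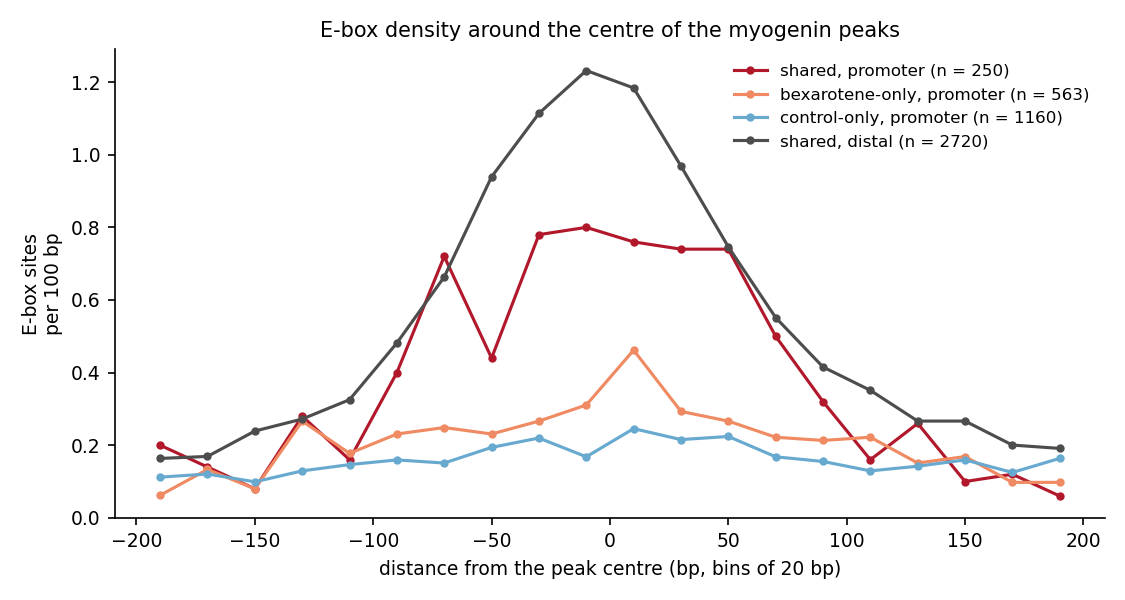
E-box sites per 100 bp (y axis) against distance from the peak centre in bins of 20 bp (x axis, bp) for the 4 classes of peak, with no smoothing. Within 40 bp of the centre the shared promoter peaks held 0.77 sites per 100 bp against 0.156 at 100 to 200 bp, a ratio of 4.94, while in control-only promoter peaks the same ratio was 1.6.

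E-boxes were concentrated at the centre of the shared promoter peaks. Density within 40 bp was 4.94 times that at 100 to 200 bp (154 and 78 sites), a ratio near the 4.6 of shared distal peaks. The ratio was 1.6 in control-only and 2.29 in bexarotene-only promoter peaks. Gaps between neighbouring E-boxes were counted over the whole bexarotene interval, up to 20 bp. They took many values, and the most frequent within that limit, 9, 12 and 18 bp, were each found in 5 peaks.

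The sign of the distance to the TSS was not used by the rule. The centre lay upstream of the TSS in 149 of 250 shared promoter peaks, or 59.6% (53.4 to 65.5), where 49.8% of all bexarotene intervals within 1 kb of a TSS were upstream. The share was 19.5 points (12.7 to 26.0) above that of control-only promoter peaks (40.1%) and 14.1 points (6.69 to 21.3) above that of bexarotene-only ones (45.5%). The excess over bexarotene-only peaks was 5.52 points (-6.83 to 17.6) among intervals longer than the smallest and 10.7 points (-1.62 to 22.9) among CpG-rich peaks, and both intervals include 0. With starts of all transcripts the upstream share was 53.3% (47.94 to 58.65), an interval that includes the 49.8% above, which was read with protein-coding starts. In 200-bp bins the largest group of shared promoter peaks, 45 (18%), lay in the 200 bp just upstream of the TSS, and the next 200 bp downstream held 31 (12.4%). The median distance was 382.5 bp, with 76 peaks within 200 bp and 159 within 500 bp. The TSS lay inside the interval in 44 peaks (17.6%). The centre was in an intron in 106 peaks, outside annotated transcripts in 100, in a UTR in 25 and in a coding exon in 19. Upstream peaks had an E-box in 53.7% and downstream ones in 47.5%, a difference of 6.17 points whose interval (-6.37 to 18.4) includes 0.

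**Figure D3:**
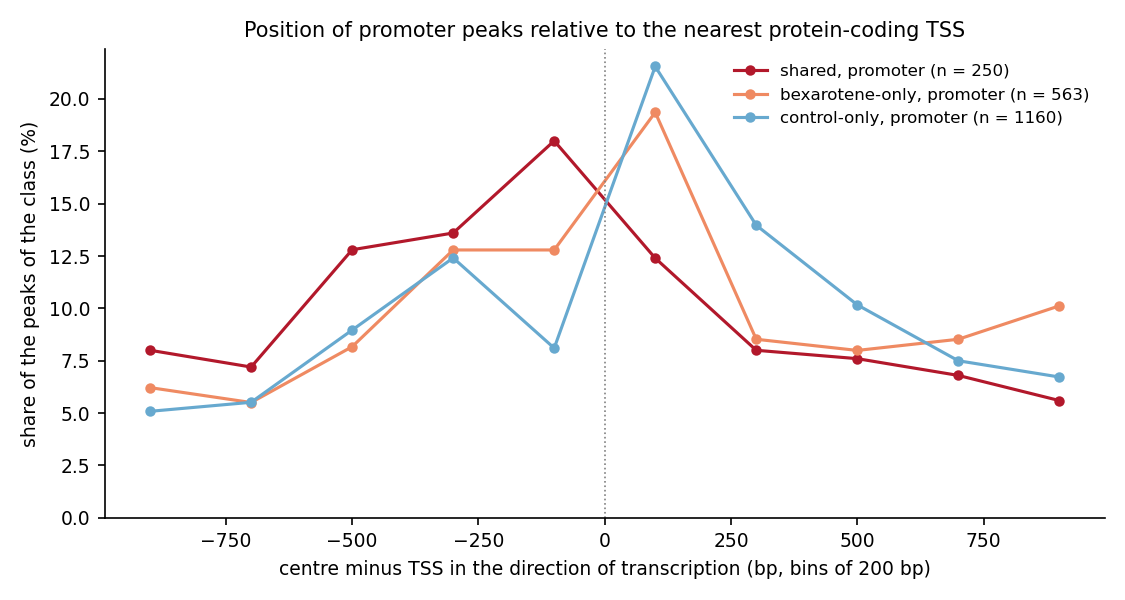
Share of the peaks of each promoter class (%, y axis) in bins of 200 bp by centre minus nearest protein-coding TSS, in the direction of transcription (x axis, bp; dotted line at the TSS). Shared promoter peaks are most frequent in the bin just upstream (18%), and control-only and bexarotene-only peaks in the bin just downstream.

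Shared promoter peaks were less often CpG-rich than the other promoter peaks. The ratio of observed to expected CpG in 200 bp around the centre was at least 0.6 in 80 of 250 (32.0%, 26.5 to 38.0), 23.3 points (16.7 to 29.5) below control-only and 11.9 points (4.62 to 18.7) below bexarotene-only promoter peaks. The ratio reached 0.6 in 50.5% of 200-bp windows centred on all protein-coding TSS, which are not matched to the peaks for distance from the TSS. Only 1.95% of shared distal peaks reached it. E-boxes went with low CpG content. They lay near the centre in 104 of 170 CpG-poor shared promoter peaks (61.2%) and in 24 of 80 CpG-rich ones (30%), a difference of 31.2 points (18.1 to 42.5). The excess over other promoter peaks was present in both. Among CpG-poor peaks the shared class was 39.8 points (31.4 to 47.5) above control-only and 31.1 points (22 to 39.6) above bexarotene-only peaks. Among CpG-rich peaks it was 15.7 points (6.27 to 26.7) and 10.6 points (0.133 to 22.2) above them.

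Other consensus sequences were searched on both strands within 100 bp of the centre, and the share of all 200-bp windows around protein-coding TSS is given beside each. Those windows are centred on the TSS, while the peaks lay a median of 382.5 bp from it. The shares are therefore not matched for position, and a lower share in the peaks cannot be told apart from their distance to the TSS. The AP-1 type bZIP site, TGACTCA or TGAGTCA, was in 9.6% of shared promoter peaks, 6.76 points (3.49 to 11.1) above control-only and 5.69 points (2.07 to 10.2) above bexarotene-only peaks, and in 2.61% of all TSS windows. Shared distal peaks held it in 13.5% (a difference of -3.86 points, -7.2 to 0.604) and all bexarotene intervals in 12.7%, so it was not particular to the shared promoter peaks. The Sp1 core GGGCGG was in 17.2%, 11.3 points (5.5 to 16.2) below control-only peaks, and in 38.6% of all TSS windows. Its difference from bexarotene-only peaks (20.1%) was -2.87 points (-8.32 to 3.15), and shared distal peaks held it in 6.07%, 11.1 points less. The Runx core TGTGGT was in 12.8% (9.88% of TSS windows) and the Tead core GGAATG in 13.2% (7.85%), and in both cases the interval of the difference from bexarotene-only peaks includes 0. Runx was 4.09 points (0.0983 to 9.03) and Tead 4.84 points (0.802 to 9.82) above control-only peaks, and shared distal peaks held more of both, 34.6% and 21.4%. CCAAT was in 17.6% (24.5%) and TGACG, the core of CREB and ATF sites, which shares its first letters with the bZIP site, in 10.4% (18.4%). The MEF2 consensus was in 1 peak, or 0.4% (0.215% of TSS windows), the Ets site CCGGAAGT also in 1 (3.76%) and the NRF1 consensus in 3, or 1.2% (4.49%). TATAAA stood 45 to 16 bp upstream of the nearest TSS for 6 peaks (2.4%), against 1.74% of all protein-coding TSS. These letter matches describe the windows and show no binding by the factors.

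p300 lists were not used by the rule. A control p300 interval overlapped 60 of the 250 shared promoter peaks, or 24.0% (19.1 to 29.7), where 36.3% of all bexarotene myogenin intervals overlapped one. This was 16.5 points (11.3 to 22.3) above control-only and 11.2 points (5.48 to 17.4) above bexarotene-only promoter peaks, and 23.7 points (17.7 to 28.9) below shared distal peaks. A bexarotene p300 interval overlapped 39 (15.6%, 11.6 to 20.6), where 25.7% of all bexarotene myogenin intervals overlapped one, against 3.71% of control-only, 6.39% of bexarotene-only and 37.8% of shared distal peaks. The p300 lists differ in size, with 22051 control and 9154 bexarotene intervals, and the depth of those libraries is unknown from positions, so the lower share in bexarotene cannot be told apart from the shorter list. Of the 60 peaks with control p300, 30 also had bexarotene p300 (50.0%, 37.7 to 62.3), where 67.7% of the shared distal peaks with control p300 and 32.7% of all control p300 intervals did.

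By condition, 30 shared promoter peaks had p300 in both lists, 30 in the control list alone, 9 in the bexarotene list alone and 181 in neither. Peaks with p300 in both included Chrna1, Chrng, Myh1 (a fast adult myosin heavy chain), Pvalb, Ryr3 (a calcium release channel of the sarcoplasmic reticulum), Plec, Ppp3ca (the catalytic subunit of calcineurin) and Nr1d1 (the clock repressor REV-ERB alpha), the last 2 picked after the list was seen. Those with p300 in the bexarotene list alone were at Gcom1 (now Myzap), Gm11147, Kbtbd5, Klf10, Mdm2, Orai1, Rdh5, Sync and Taf4a. Orai1 is the pore of store-operated calcium entry, Mdm2 the ubiquitin ligase of p53, Rdh5 a retinol dehydrogenase and Sync the intermediate filament protein syncoilin. Among the 30 with control p300 alone were, picked after the list was seen, Akt2 (a kinase of insulin signalling), Cacnb2 (a calcium channel subunit), Mustn1 (a nuclear protein of muscle and bone) and Srebf2 (a regulator of sterol synthesis). Peaks with an E-box near the centre had bexarotene p300 in 20.3% and those without in 10.7%, a difference of 9.66 points (0.607 to 18.6). For control p300 the shares were 28.1% and 19.7%, and the interval of the difference (-2.17 to 18.8) includes 0. Peaks with an E-box near the centre were also longer, with a median of 213.5 bp against 168 bp. Bexarotene p300 overlapped 9.02% of the smallest intervals and 21.9% of the longer ones. The part of length in the E-box difference was not tested. CpG-rich peaks had bexarotene p300 in 4 of 80, at 5.0%, which differed from control-only CpG-rich peaks by 0.171 points (-3.44 to 7.47). In intervals of the smallest length the control p300 share was 16.4%, 9.43 points (3.58 to 17.2) above control-only peaks of that length, and 5.78 points (-0.606 to 13.8) above bexarotene-only ones.

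The 250 peaks had 236 protein-coding genes at their nearest TSS, 1.05% of the 22378 in the annotation. For 18 peaks starts of more than 1 gene lay within 1 kb, and 13 genes had more than 1 peak. The 7 lists of muscle genes named 257 annotated genes, of which 22 (8.56%, 5.72 to 12.6) had a shared promoter peak. The same lists had a control-only promoter peak at 16 genes (6.23%, against 4.63% of all coding genes) and a bexarotene-only one at 18 (7.0%, against 2.39%). Lists and peaks were put together with results of these data known, so the counts describe these genes and are no evidence of their own. The 25 peaks at muscle-list genes had an E-box within 50 bp in 19 cases (76.0%, against 48.4% of the other 225 peaks, a difference of 27.6 points with an interval of 7.07 to 41.6) and somewhere in the interval in 24. Only 2 of the 25 were CpG-rich.

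**Figure D4:**
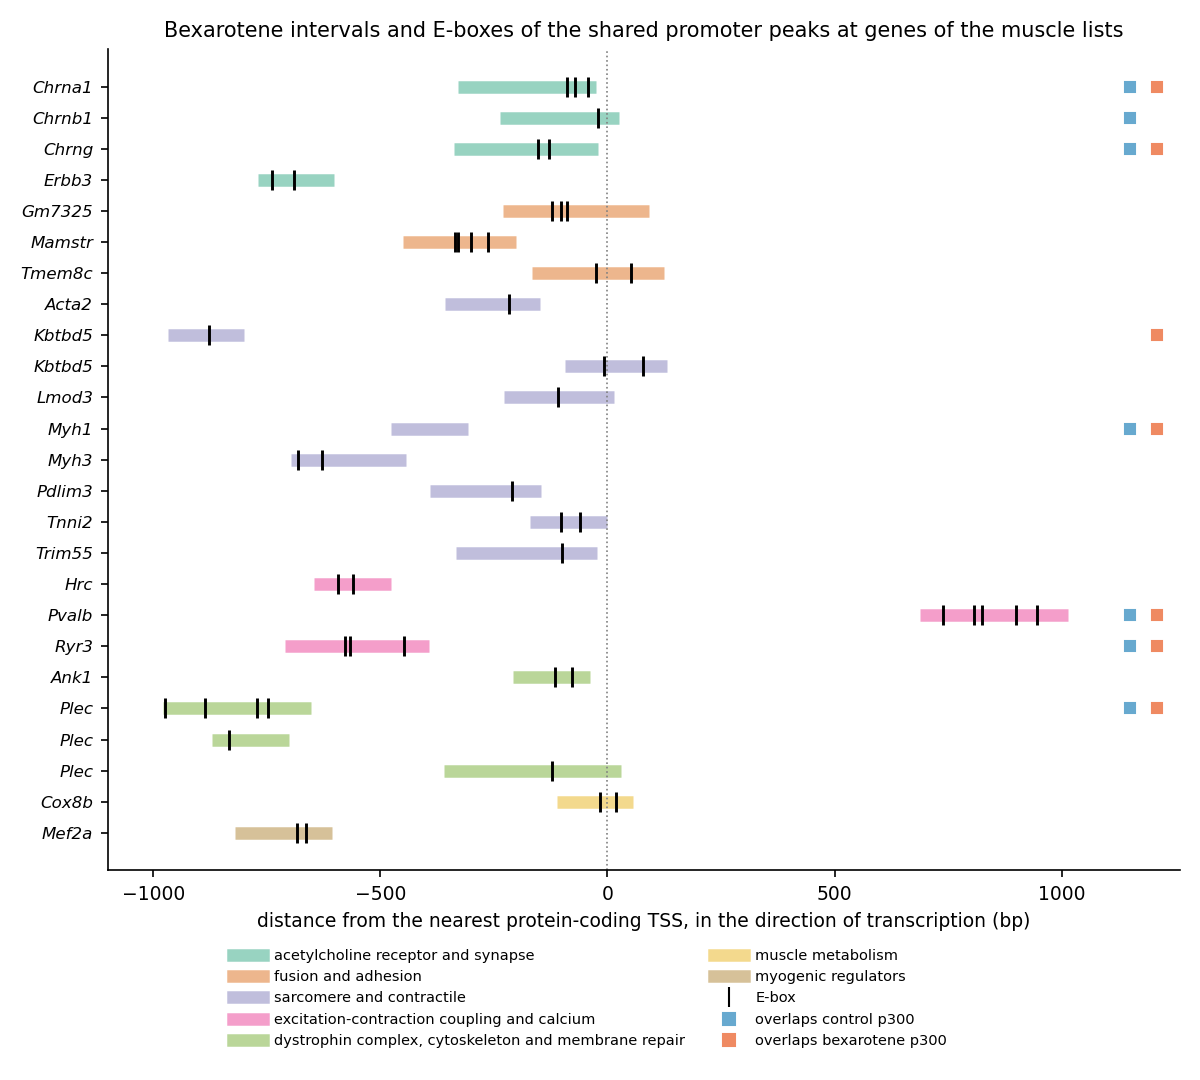
Bexarotene intervals (bars, coloured by gene list) of the 25 shared promoter peaks at genes of the 7 muscle lists, drawn to scale by distance from the nearest protein-coding TSS (x axis, bp, dotted line at the TSS), with E-boxes as black ticks and squares where a control or bexarotene p300 interval overlaps. All intervals but the one at Myh1 hold an E-box, and 7 overlap p300 in at least the bexarotene list.

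Of the 15 genes of the acetylcholine receptor and synapse list, 4 had a shared promoter peak. The peak of Chrna1 ran over 465 bp in control and 303 bp in bexarotene, with its bexarotene centre 177 bp upstream of the TSS, and held the 3 E-boxes printed above at -90, -71 and -42. At Chrng it spanned 307 and 317 bp, centred at -180, with E-boxes at -152 and -129. Both overlapped p300 in both lists. Chrnb1 had intervals of 272 and 263 bp centred at -105, 1 E-box (CAGGTG) at -21, and p300 in the control list. Erbb3, a neuregulin receptor, had intervals of 270 and 168 bp centred at -685, with 2 E-boxes and no p300. The centres of the 3 receptor subunit peaks thus lay within 200 bp upstream of the start, in CpG-poor sequence, while that of Erbb3 lay farther out in CpG-rich sequence.

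Among 32 genes of the fusion and adhesion list found in the annotation, Gm7325, Tmem8c and Mamstr had a shared promoter peak. At Gm7325 the peak (chr17:45738960-45739280) measured 310 bp in the control list and 321 bp in the other, was centred at -69 and covered the TSS. At Tmem8c it was 248 and 292 bp, centred at -21, with 2 E-boxes on either side of the TSS. At Mamstr it was 172 and 248 bp, centred at -326, with 4 E-boxes of which none was CAGCTG. None of the 3 overlapped a p300 interval of either list, which means only that no interval was called there. For myomixer the study reports p300 signal at the promoter in its read tracks. Its ChIP-qPCR also found p300 there, rising upon differentiation and further with bexarotene.

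The sarcomere and contractile list had 8 of 70 genes with a shared promoter peak, and these gave 9 peaks because Kbtbd5 (now Klhl40, a Kelch protein that stabilises thin filaments) had 2, at -884 and 19. The upstream one overlapped bexarotene p300 and no control p300. Peaks near the start were found at Tnni2 (-86), Lmod3 (-106, leiomodin 3, a nucleator of actin filaments), Trim55 (-178, a ubiquitin ligase of the sarcomere), Acta2 (-253, smooth muscle actin) and Pdlim3 (-268, a Z-disc protein). The myosin genes Myh1 and Myh3 had theirs farther upstream, at -392 and -571. An E-box lay within 50 bp of the centre in 5 of the 9 peaks, and those of Myh1, Myh3, Pdlim3 and Trim55 had none there. The Myh1 interval (chr11:67013078-67013245, in an annotated intron, 219 bp in control and 168 bp in bexarotene) had no E-box at all and overlapped p300 in both lists.

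In the excitation-contraction and calcium list, 3 of 33 genes had a shared promoter peak. Pvalb (chr15:78035816-78036142) had intervals of 566 bp in control and 327 bp in bexarotene centred 851 bp into the gene, Ryr3 (chr2:112870882-112871198) had 349 and 317 bp centred at -552 with 3 E-boxes, and Hrc, a calcium-binding protein of the sarcoplasmic reticulum, had 227 and 168 bp centred at -561 with 2 E-boxes. p300 overlapped the first 2 in both lists. In the cytoskeleton and membrane list 2 of 42 genes had one, Plec and Ank1 (ankyrin 1). Plec, the linker protein plectin, had 3 shared peaks at different annotated starts, centred at -816, -786 and -165, the most of any gene. The one at -816 (chr15:76037405-76037731) held 4 E-boxes and overlapped p300 in both lists. Of muscle metabolism genes 1 of 36 had a shared promoter peak, Cox8b at -27 with 2 CAGCTG, and of myogenic regulators 1 of 32, Mef2a at -713 with 2 E-boxes. No shared promoter peak was found at the genes of the other myogenic regulators in that list.

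Of the lists outside muscle, the RXR, RAR and partner receptor list had no gene of 29 with a shared promoter peak, where 1.05% of all coding genes had one, so that a list of this size may hold none at the background share. The Runx and Tead list had Tead4 (-342, in an intron, 299 bp in control and 406 bp in bexarotene, 1 E-box in the interval) and Wwtr1 (the Hippo coactivator TAZ, -760, with control p300). The chromatin co-regulator list had 1 of 27, Hdac11 (-377), whose interval held 4 E-boxes, all of them CAGCTG. The cell cycle list had 3 of 36, at E2f1 (282), E2f3 (-875) and Gadd45b (-996). The list of AP-1 and immediate early genes, taken as another programme, had Klf4 (-795) and Klf10 with peaks at -39 and 63, and none of these 3 intervals held an E-box. The signalling list had 1 of 51, the inhibitory SMAD gene Smad6 at -745, also without an E-box.

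Further genes were picked after their positions were seen. Both enzymes of creatine synthesis had a shared promoter peak in an intron, Gatm at 487 bp from the TSS with 3 E-boxes and Gamt at 634 bp with 2. Dmpk, the kinase gene of myotonic dystrophy, had one at 627 bp with 4 E-boxes in 217 bp. Sync had 2, at -410 and 603, and the control interval of the first was 1166 bp long against 308 bp in bexarotene. Sorbs2, a Z-disc and adhesion adaptor, had one across its TSS at -8 with p300 in both lists. Among genes of growth control and stress, Foxo3, Stk11, Sesn1 and Ddit4 had a shared promoter peak with no E-box in the interval, Ddit3 and Sirt1 one with 1 E-box and Mdm2 one with 2. Those at Sesn1, Ddit4, Sirt1 and Mdm2 were CpG-rich. At least Ddit3, Sirt1 and Mdm2 of this group lie on chromosome 10. That chromosome held 33.5 shared promoter peaks per 1000 coding genes, against 9.16 outside chromosomes 10 and 15. Control-only promoter peaks were also dense there, at 134.9 per 1000, so the group may reflect the chromosome as much as the function, which was not tested.

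Interval lengths come from the calls that chose the peaks and are given as a description. The medians were 215 bp (control) and 211 bp (bexarotene), a ratio of 0.981. The smallest length found in each list, 172 and 168 bp, was that of 121 control and 122 bexarotene intervals, with 81 peaks at it in both lists. Of all 250, 81 (32.4%) were longer in bexarotene, 168 longer in control and 1 equal, where 45.6% of all shared intervals were longer in bexarotene. The 81 peaks at the smallest length in both lists count as longer in control by construction. Of the 88 peaks above the smallest length in both lists, 41 were longer in bexarotene and 46 in control. The centres of the paired intervals lay a median of 45 bp apart, 138 pairs were within 50 bp and 45 more than 100 bp apart, up to 463 bp at Cdc34 (a ubiquitin-conjugating enzyme, named for this shift), where an interval of 1174 bp in control met one of 168 bp in bexarotene. Overlaps were at least 4 bp, and 9 were under 50 bp.

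**Figure D5:**
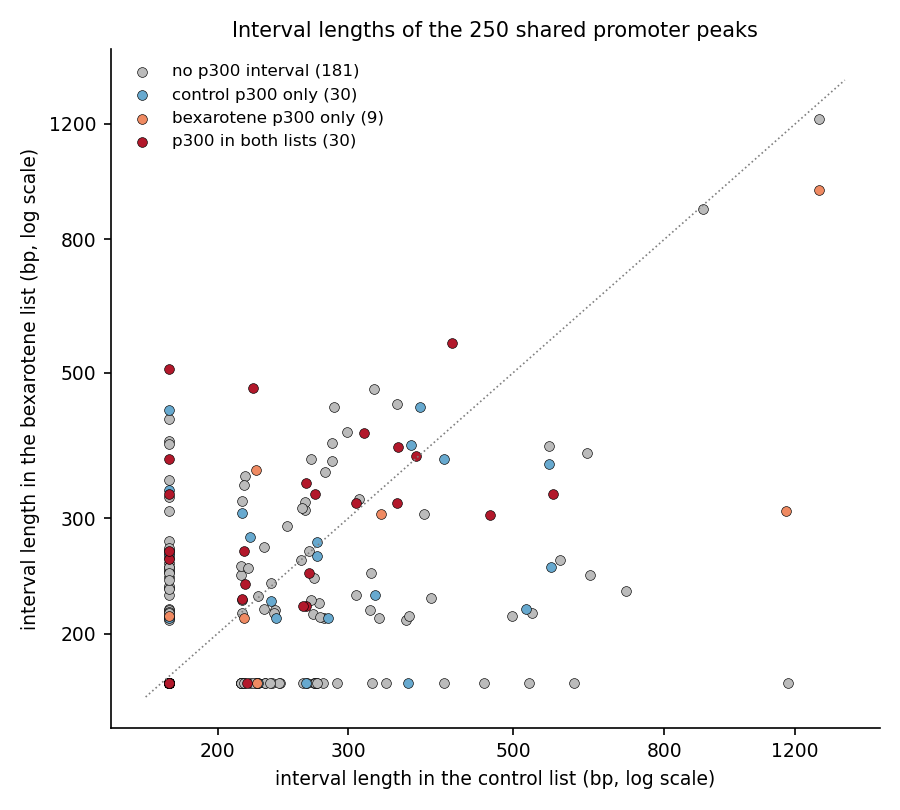
Length of the paired intervals of the 250 shared promoter peaks in the control list (x axis, bp, log scale) and the bexarotene list (y axis, bp, log scale), coloured by p300 overlap, with the dotted line at equal length. The 81 pairs at the smallest length in both lists (172 and 168 bp) lie on one point, and 181 peaks overlap no p300 interval.

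The longest shared promoter peaks were at Gm10800 (1294 bp in control and 1221 bp in bexarotene), Rdh5 (1292 and 951 bp), Gm10801 (901 and 889 bp), Rhobtb1 (414 and 555 bp), ORF63 (172 and 507 bp, now Map3k7cl), Ppfia4 (223 and 474 bp), Ripk2 (325 and 473 bp), 1110017F19Rik (349 and 448 bp), A430105I19Rik (375 and 443 bp) and Ddit3 (287 and 443 bp). Gm10800 and Gm10801 belong to 4 adjacent intervals in each list on chromosome 2, in the control list between 98502362 and 98507605, which held no E-box and overlapped no p300 interval at either gene. Of their 50-base words 62.8% and 71.6% occurred once in the genome, whereas 240 of the 250 peaks were made of unique words alone. At the distance limit, the peaks just inside 1 kb were at Abcb6 (991 bp), Gadd45b (-996 bp) and Sap130 (999 bp), and the shared peaks just outside were at Ube2g2 (1004 bp), Sec63 (1004 bp) and Egr1 (-1010 bp).

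By chromosome, 35 shared promoter peaks lay on chromosome 10, 33 on chromosome 2 and 27 on chromosome 15. Per 1000 protein-coding genes this was 33.5, 17.9 and 33.9, against 9.16 over all chromosomes but 10 and 15. Chromosomes 10 and 15 held 24.8% (19.9 to 30.5) of the shared promoter peaks and 8.23% of coding genes, and they also held 21.7% of control-only and 18.1% of bexarotene-only promoter peaks and 15.4% of shared distal peaks. On these chromosomes the E-box share was 40.3% of 62 peaks, against 14.3% of control-only promoter peaks there, a difference of 26.0 points (13.7 to 39.0), and on the others it was 54.8% of 188 peaks against 18.4%, 36.4 points (28.8 to 43.7). The part of copy number in these counts was not tested. Another bexarotene myogenin interval lay within 50 kb of 174 shared promoter peaks (69.6%), 7.27 points (0.709 to 13.3) more than for control-only promoter peaks, read in the control list, and 14 points (6.8 to 20.8) more than for bexarotene-only ones (55.6%). It did so for 65.3% of shared distal peaks, where the interval of the difference (-1.91 to 9.97) includes 0, and for 62.2% of all bexarotene intervals. Plec, Cd63, Midn and Rdh5 had 10 such neighbours each, the highest number. Of these, at least Plec (chromosome 15), Cd63 and Rdh5 (both chromosome 10) lie on the 2 chromosomes rich in peaks. The neighbour shares were not read separately for those chromosomes, so their part in the differences was not tested.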

How the data were processed

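The authors used the mm9 build, with BWA-MEM as aligner for the myogenin libraries and Bowtie for the p300 ones. Duplicate reads in the myogenin data were taken out with Picard, and HOMER's factor mode with variable-length regions called the peaks, library by library. The deposited lists give chromosome, start and end, with no counts or scores, so the authors' threshold could not be changed. The study states an average read depth over its datasets, and the depth of each library is unknown here. Of 8 samples, 4 have a list. Positions are printed counted from 1.

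TSS came from protein-coding transcripts of GENCODE vM1 on the same build (45982 positions), in place of RefSeq. RefSeq's gene table (GRCm38.p6) gave current symbols only, and 219 members matched by symbol and 26 by synonym. E-boxes were counted within 50 bp of the centre, read in the control list for control-only peaks and in the bexarotene list otherwise. Genes named are those of the 13 fixed lists, the 10 longest peaks, those with most E-boxes, those with p300 in the bexarotene list alone and the 3 on either side of the limit. Others were named after their values were seen, among them Akt2, Cacnb2, Cd63, Cdc34, Chd3, Midn, Nr1d1, Ppp3ca and the genes of creatine synthesis, growth control and stress. Members and lists were chosen with earlier results of these data known. Alternatives changed the overlap rule, TSS distance and catalog, E-box window and consensus, p300 rule and smallest intervals, and 2 added after seeing the data left out chromosomes 10 and 15 or repeated sequence. Functions were tested on simulated data. Python 3.11.15, numpy 2.4.6, pandas 2.3.3, scipy 1.17.1, pysam 0.24.0 and matplotlib 3.10.9 were used.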

Additional observations from a re-analysis of the deposited data

How the results depend on the processing

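No paired analysis was possible because each condition had 1 library. No difference of E-box shares changed direction under any of the alternatives run. The number of shared promoter peaks was 159 with the TSS within 500 bp, 382 within 2 kb and 128 among intervals longer than the smallest. With only those longer intervals, the E-box share was 57.8%, its difference from control-only promoter peaks 41.8 points, and the p300 shares 31.3% (control) and 21.9% (bexarotene). That filter uses the bexarotene length alone, so it raises the ratio of median lengths (1.07) by construction. The E-box share was 71.6% within 100 bp of the centre, 72.0% over the whole interval, 42.0% for CAGCTG alone and 66.8% for any CANNTG. The difference from control-only peaks was 42.2 points within 100 bp and 43.1 points over the whole interval, and that from bexarotene-only peaks 34.7 points over the whole interval. Starts of all transcripts gave a control p300 share of 29.7% and an upstream share of 53.3% (47.94 to 58.65). The upstream share was 53.7% (48.65 to 58.6) with the TSS within 2 kb and 54.7% (46.05 to 63.05) in the longer intervals. All of these intervals of the upstream share include the 49.8% of all bexarotene intervals within 1 kb of a TSS. Under the other alternatives run, its interval stayed above that value. The 49.8% was read with the main setting only and includes the shared promoter peaks themselves. It was not recomputed for the alternatives, so these readings cannot decide whether an excess holds under them. Counting a p300 centre within 500 bp gave 30.4% (control) and 21.6% (bexarotene), and asking for overlap of at least 0.5 of the interval gave 16.8% and 9.2%. Of all 75 values, 55, the length ratio among them, stayed within the interval or within 1.5 times the count of the main setting. The unknown depth of each library and the lack of a second library in each condition limit every comparison.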
